A study of Mus musculus with 8 samples.

Results

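Proteasome genes were described in RNA sequencing of testes from a valine group (valine is an essential branched-chain amino acid) and a control group of mice. The members were all protein-coding genes in the deposited expression table whose mouse symbol begins with Psma, Psmb, Psmc, Psmd, Psme, Psmf or Psmg, without pseudogenes: 50 of 55414 genes. The labels placed 4 samples in the valine group and 4 in the control group. The sources used here give neither strain nor age, nor the dose, route and duration of valine, nor what the control mice received, nor whether each sample was a separate animal. The spread that the p-values measure is that of these samples, and it may be technical.

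The proteasome is the barrel-shaped protease that breaks down proteins tagged with ubiquitin. Its core is built of rings of alpha subunits (Psma genes), which gate the entrance, and rings of beta subunits (Psmb genes), some of which carry the cutting sites. A regulatory cap of ATPases (Psmc genes) and other subunits (Psmd genes) recognises and unfolds the tagged proteins, and alternative activators (Psme genes) can take its place. Male germ cells are known for their own forms: Psma8 takes the place of the alpha subunit Psma7 during meiosis, and Psme4 caps proteasomes that remove acetylated histones when sperm chromatin is repacked.

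Levels were given as FPKM, fragments per kilobase of transcript scaled to the mapped fragments of the sample, so they can be set side by side between genes per unit of length. The FPKM totals were 1027662 to 1070524 in valine and 944659 to 974626 in control samples, and did not overlap. The absolute depth was unknown. Low values stood at fixed steps between samples, and these steps placed the depth at 0.866 to 0.992 times that of control replicate 1 in valine samples and 0.870 to 1.00 times in control samples. The samples carried the markers of testis. The 8 elongating spermatid markers, Prm1 and Tnp1 among them, summed to 57939 to 70104 FPKM in valine and 45666 to 47868 FPKM in control samples, and 7 of the 8 passed the test as higher as deposited, 5 with equal totals and 0 after quantile normalisation. Of all tested genes 4.32%, 1.64% and 1.80% were higher under the same scalings. The 8 spermatocyte markers summed to 1041 to 1108 FPKM in valine and 1036 to 1141 FPKM in control samples, but did not move together. As deposited 1 of them, Stag3, passed as lower with a change of -0.34 (log2), as did 4.41% of all tested genes. The changes of 6 were positive, and none of these passed. The 9 Leydig cell markers summed to 479 to 774 FPKM in valine and 1605 to 2275 FPKM in control samples. In bulk tissue, fewer cells of a type and less RNA per cell cannot be told apart.

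The proteasome was abundantly transcribed in both groups, and its members differed far more from each other than between the groups. The median member had 44.1 FPKM over the 8 samples, against 8.28 FPKM for the median tested gene. Levels spanned a wide range even within a ring, whose subunits are present in equal number in the finished particle. Among the alpha subunits, Psma6 averaged 653 FPKM over the 8 samples and Psma2 averaged 19.4 FPKM. Among the cap ATPases, Psmc3 averaged 619.9 FPKM and Psmc6 37.3 FPKM. The other subunits of the cap ran from 26.8 FPKM for Psmd14, the deubiquitinase of the cap, to 272 FPKM for Psmd2, a large scaffold subunit. The length that the authors assigned to each gene enters each of these levels, and the sources used here do not state it. Processed pseudogenes exist for some members, so reads of near-identical copies may have been split. A further 4 genes with such symbols were left out as pseudogenes or as not annotated as protein-coding.

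**Figure D1:**
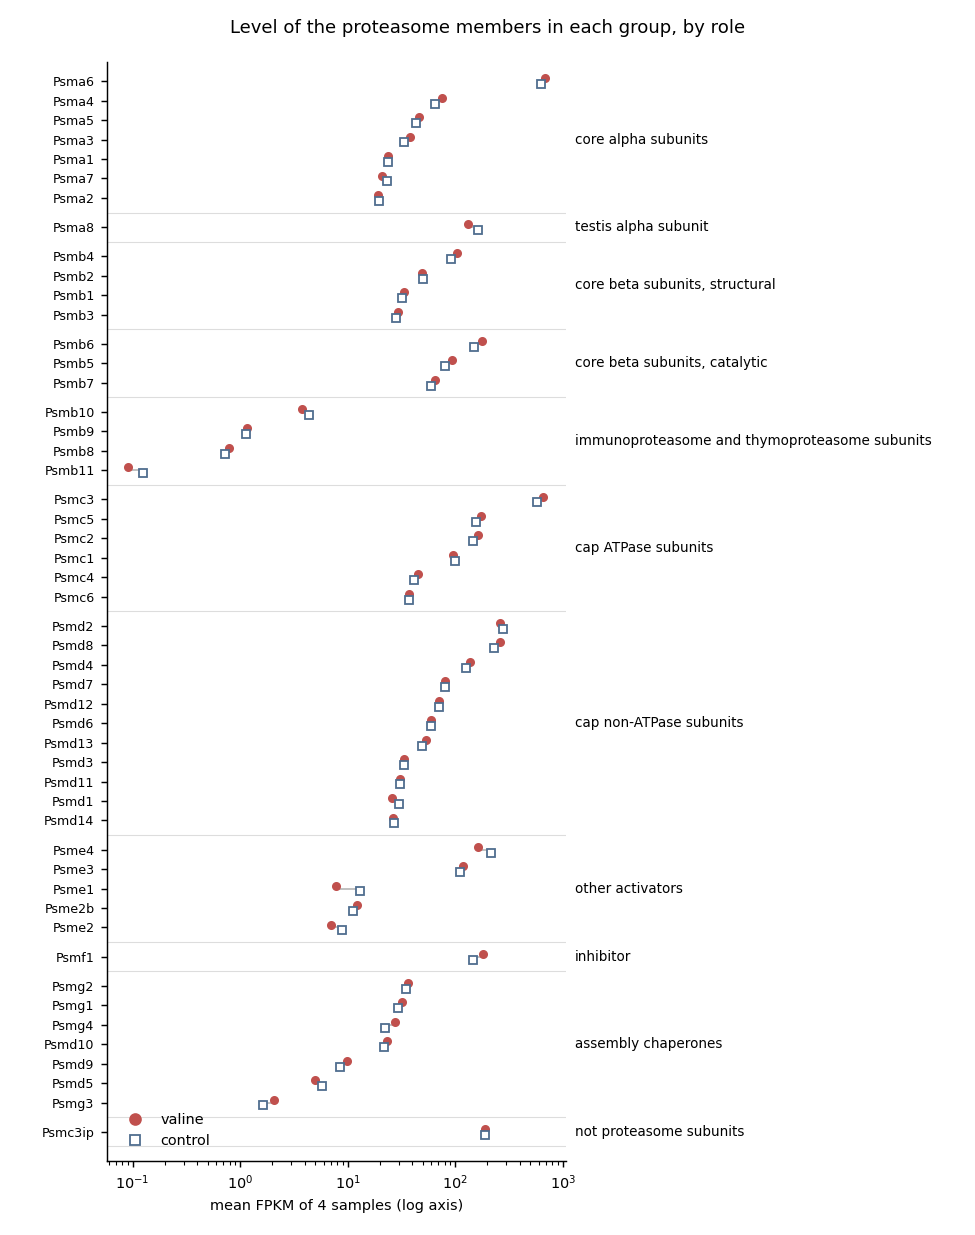
Mean FPKM of each proteasome member (log axis) in valine (filled circles) and control (open squares) testes, n = 4 each, grouped by role. The spread between members runs from 0.124 FPKM for Psmb11 to 625 FPKM for Psma6 in control testes, while the 2 groups lie close together for most members.

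Changes between the groups were small. The test was limma on log2(FPKM + 1) of the 22077 genes whose mean reached 1 FPKM, two-sided, with Benjamini-Hochberg adjustment over all of them at 0.05. A change on this scale understates that of low genes. Of the 50 members 48 were tested, and the thymus form Psmb11 and the immunoproteasome subunit Psmb8 were below the filter. In valine testes 5 members rose (10.4% of those tested, against 4.32% of all tested genes) and 1 fell (2.08%, against 4.41%). Changes ran from -0.68 to 0.30 on the log2 scale, 36 of the 48 were smaller than 0.2 in either direction, and the median was 0.08, against 0.02 for all tested genes. The groups did not overlap for 14 members (10 with valine higher and 4 with valine lower), and for 18.4% of all tested genes (8.99% with valine higher and 9.39% with valine lower).

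The direction of the calls depended on how the samples were scaled. When every sample was brought to the same FPKM total, a scaling that shifted the median of all tested genes by -0.10 (log2), no member was higher and 5 were lower, among 363 higher (1.64%) and 2022 lower (9.16%) of all tested genes. Those 5 were the activators Psme1 and Psme4 and the cap subunits Psmc1, Psmd1 and Psmd2. With quantile normalisation Psmf1 was higher and Psme1, Psme4, Psmc1 and Psmd2 were lower, against 1.80% higher and 4.66% lower of all tested genes. After the trend of the values on gene length was removed, Psmf1, Psmc3 and Psmd9 were higher and Psme1 was lower, against 3.01% and 3.03%. Psme1 was thus the one member called in the same direction under each of these 4 scalings.

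The counts also depended on single libraries. No member passed in either direction without valine replicate 1 (1.86% of all tested genes higher and 2.21% lower), without control replicate 1 (1.73% and 2.09%) or without control replicate 2 (2.11% and 2.55%). Without valine replicate 2, 1 member was higher and 0 lower (2.69% and 2.62%). Without valine replicate 3, 2 were higher and 1 lower (2.85% and 2.93%), and without valine replicate 4, 2 were higher and 0 lower (2.63% and 2.78%). Without control replicate 3, 2 were higher and 1 lower (3.60% and 3.21%), and without control replicate 4, 4 were higher and 0 lower (3.32% and 3.63%). The shares of all tested genes also fell when a library was left out.

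**Figure D2:**
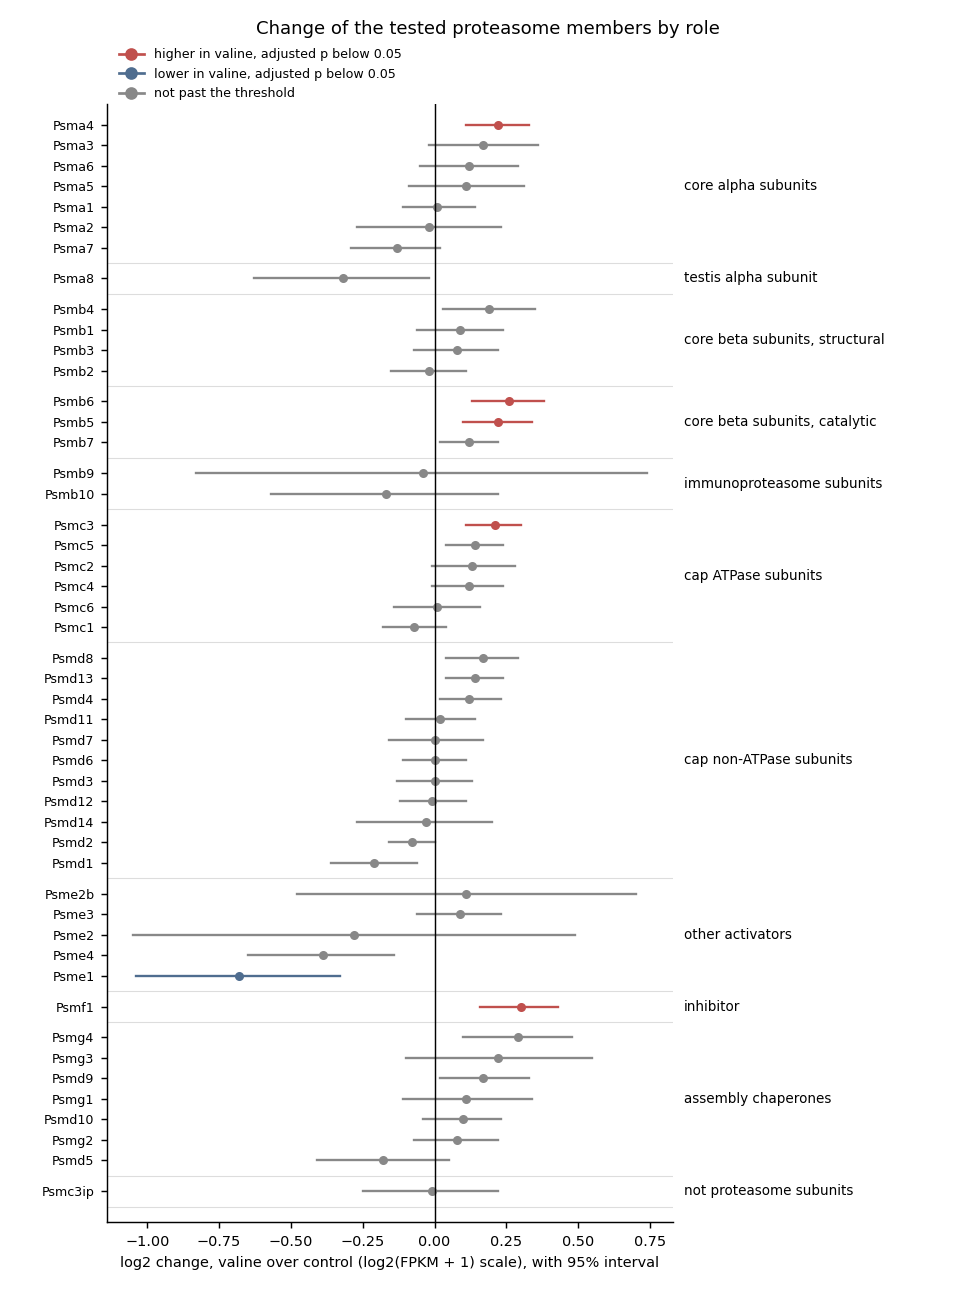
Log2 change of the 48 tested members, valine over control, on the log2(FPKM + 1) scale, with 95% limma intervals (n = 4 per group), ordered by role. The 5 called rises lie between 0.21 and 0.30 and the called fall, Psme1, at -0.68, while the interval of most other members includes 0.

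The core particle held 3 of the 5 rises, all of modest size. Of its 14 ordinary subunits 3 rose and none fell, against 4.32% and 4.41% of all tested genes, and 11 had a positive change, against 53.6% of all tested genes. The median change was 0.11 as deposited and 0.05 after quantile normalisation; with equal totals it was -0.00. The catalytic subunits lay at the upper end: Psmb6, Psmb5 and Psmb7, which carry the caspase-like, chymotrypsin-like and trypsin-like sites, did not overlap between the groups, which held with valine higher for 8.99% of all tested genes.

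Psmb6 had 189, 173, 169 and 183 FPKM in valine replicates 1 to 4, against 139, 155, 149 and 155 FPKM in control replicates 1 to 4. Every valine sample was above every control sample, and the rise was 0.26 ± 0.0558 (SE) on the log2 scale (limma adjusted p = 0.0285). Psmb5 had 89.2, 93.0, 99.4 and 93.3 FPKM in valine samples, against 74.9, 81.8, 81.4 and 83.0 FPKM in control samples. This was a rise of 0.22 ± 0.0527 (SE), with limma adjusted p = 0.0378, again with no overlap. Psmb7 averaged 64.7 ± 1.76 FPKM in valine and 59.6 ± 1.62 FPKM in control testes (SD, n = 4 each) and did not pass (limma adjusted p = 0.140). With equal totals neither Psmb6 (limma adjusted p = 0.113) nor Psmb5 (0.229) passed, and both changes stayed positive. Of the 20 alternatives Psmb6 passed in 8 and Psmb5 in 5. Psmb5 passed in 0 of the 8 fits with a library left out (limma adjusted p = 0.0556 to 0.0930), and its change was 0.10 with the length trend removed.

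The promoters of Psmb6 and Psmb5 are shown because both genes passed and both hold the letters TGACNNNGC, the pattern of the antioxidant response element bound by Nfe2l1, a transcription factor known to raise proteasome genes. Sequences are from RefSeq (assembly GRCm38.p6, older than the authors' GRCm39), 5′ to 3′ on the strand of the gene, with the match in capitals.
Psmb6: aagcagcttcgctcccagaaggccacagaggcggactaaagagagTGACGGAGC
Psmb5: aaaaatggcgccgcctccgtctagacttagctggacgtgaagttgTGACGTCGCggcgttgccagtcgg
The Psmb6 stretch is chr11:70525303-70525356 on the plus strand, with the match starting at base -9 from the annotated start of the gene. The Psmb5 stretch is chr14:54618019-54618087 on the minus strand, with the match starting at base -47. Over both strands of 250 bases before to 50 after the start, the pattern was found in 6 of the 42 members with a promoter in the table, or 14.3%. It was found in 3781 of all 27025 genes with one, a similar share, so it was not enriched among members. The other holders, Psmc6, Psmd12, Psmd9 and Psme4, changed by 0.01, -0.01, 0.17 and -0.39 (log2), and none passed as deposited. The called rises Psmf1, Psmc3 and Psma4 were not among the holders. The stricter form TGACTCAGC was found in 0 of the 42 members and in 136 of all genes. The motifs were searched as written and in reverse complement. A match describes letters and is no evidence of binding.

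Among the other beta subunits, Psmb4, which has no cutting site, had 93.3, 107, 110.3 and 109 FPKM in valine samples, against 85.1, 96.2, 89.5 and 97.4 FPKM in control samples. The groups overlapped and Psmb4 did not pass (limma adjusted p = 0.139). Psmb1, Psmb2 and Psmb3 changed by 0.09, -0.02 and 0.08 on the log2 scale and did not pass.

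In the alpha ring, Psma4 rose. It had 71.5, 75.9, 78.7 and 74.9 FPKM in valine samples, against 64.6, 61.7, 65.5 and 66.6 FPKM in control samples. The groups did not overlap, and the rise was 0.22 ± 0.0483 (SE) on the log2 scale (limma adjusted p = 0.0306; 0.232 with equal totals), passing in 7 of the 20 alternatives. Psma1, Psma2, Psma3, Psma5 and Psma6 did not pass, with changes between -0.02 and 0.17. Psma6, the most abundant member, averaged 681 ± 53.0 FPKM in valine and 625 ± 53.7 FPKM in control testes (SD, n = 4 each).

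The germ cell form Psma8 was the main transcript at its place in the alpha ring in both groups. Psma8 had 113, 144, 107 and 165 FPKM in valine samples, against 155, 175, 168 and 156 FPKM in control samples. Of the valine samples 3 were below all control samples and replicate 4 lay within their range. The change was -0.32 ± 0.132 (SE) on the log2 scale, with a 95% interval of -0.63 to -0.02, and did not pass (limma adjusted p = 0.169). The ubiquitous Psma7 had 21.2, 21.9, 19.9 and 21 FPKM in valine samples, against 23.7, 25.1, 20.8 and 23.0 FPKM in control samples. It did not pass either (change -0.13 ± 0.069 SE, limma adjusted p = 0.272).

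The share of Psma8 in the sum of Psma7 and Psma8, which does not depend on the scaling of a sample, was 84.2, 86.8, 84.3 and 88.7% in valine samples, against 86.7, 87.5, 89.0 and 87.1% in control samples. The mean share was 86.0 ± 2.17% in valine and 87.6 ± 0.978% in control testes (SD, n = 4 each; two-sided exact permutation test, p = 0.229, adjusted p = 0.381 over 5 shares). The difference of -1.56 percentage points was within the spread of the samples. With 70 arrangements of the samples, a share that alone reaches the smallest possible p has an adjusted p of 0.143 over the 5 shares, so a single share cannot pass 0.05.

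Psme4 differed most between the groups among the abundant members, but did not pass as deposited. It had 176, 142, 159 and 178 FPKM in valine samples, against 192, 242, 188 and 243 FPKM in control samples. All valine samples were below all control samples, and the mean was 164 ± 16.9 FPKM in valine and 216 ± 30.3 FPKM in control testes (SD, n = 4 each). The change was -0.39 ± 0.111 (SE) on the log2 scale (limma adjusted p = 0.0647). It passed with equal totals (-0.51, limma adjusted p = 0.0198) and quantile normalisation (-0.52, limma adjusted p = 0.0291), and not with the length trend removed (-0.28, limma adjusted p = 0.194). Over the 20 alternatives its change was negative in all and passed in 3. Psme4 is the longest of the members, with 8382 bases of exon in GENCODE vM21.

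The other activators showed one call. Psme1 joins Psme2 in an interferon-induced cap that helps to make peptides for antigen presentation. Psme1 had 8.25, 8.11, 8.86 and 5.70 FPKM in valine samples, against 12.1, 16.5, 11 and 12.5 FPKM in control samples. It fell in valine testes by 0.68 on the log2 scale (SE 0.155, 95% interval -1.04 to -0.33, limma adjusted p = 0.0319), a 1.61-fold difference with no overlap. Adjusted p from limma was 0.0202 with equal totals, 0.0376 with quantile normalisation and 0.0338 with the length trend removed. The call held in 2 of the 8 fits with a library left out, where the adjusted p lay between 0.0402 and 0.0716.

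Its partner Psme2 and the copy Psme2b are near-identical, and how reads were divided between them is uncertain. Added together they had 19.8, 16.2, 20.5 and 20 FPKM in valine samples, against 23.6, 18.1, 22.1 and 17.3 FPKM in control samples, with overlap (two-sided exact permutation test, p = 0.571). Their exon lengths in GENCODE vM21 differ (1764 bases for Psme2 and 837 for Psme2b). The summed FPKM thus still depends on how the reads were divided. Psme3, a cap of nuclear proteasomes, had 123, 111, 111 and 128 FPKM in valine samples, against 115, 105, 107 and 118 FPKM in control samples. It did not pass (limma adjusted p = 0.435), and its change of 0.09 was -0.03 with equal totals.

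The share of Psme4 in the summed FPKM of Psme1, Psme2, Psme3 and Psme4 was 56.6, 52.7, 55.7 and 55.5% in valine samples, against 57.7, 64.8, 60.5 and 64.0% in control samples. The copy Psme2b, with means of 12.2 FPKM in valine and 11.3 FPKM in control testes, was not part of this sum. The mean was 55.1 ± 1.67% in valine and 61.7 ± 3.26% in control testes (SD, n = 4 each), and the groups did not overlap. The two-sided exact permutation test gave the smallest p that its 70 arrangements allow and an adjusted p of 0.143 over the 5 shares, so the share did not pass.

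The start regions of Psme4 and Psme1 are shown as those of the activators that stand farthest apart between the groups. The first holds TGACNNNGC, and the second holds GAAA, any 2 bases and GAAA, the pattern of the interferon-stimulated response element, both on the opposite strand and in capitals.
Psme4: gctgcggctGCAGCGTCAccagaagagccg
Psme1: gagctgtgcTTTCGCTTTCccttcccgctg
They lie at chr11:30771759-30771788 and chr14:55578494-55578523, both on the plus strand of GRCm38.p6. The matches begin at base -7 (Psme4) and base 10 (Psme1) from the annotated start of the gene. The interferon-stimulated pattern was found in 5 of the 42 member promoters, or 11.9% (those of Psme1, Psmb3, Psmd4, Psmd9 and Psmg4), and in 3.99% of all promoters of that table. Unlike Psme1, the holders Psmb3, Psmd4, Psmd9 and Psmg4 changed upward, by 0.08, 0.12, 0.17 and 0.29 (log2), and none of them passed as deposited. The pattern was not found in the promoters of the immunoproteasome genes Psmb8, Psmb9 and Psmb10.

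The immunoproteasome subunits, which replace the catalytic subunits under interferon, were scarce and varied between samples of the same group. Psmb9 had 0.329, 2.14, 1.76 and 0.407 FPKM in valine samples, against 1.28, 0.736, 1.98 and 0.546 FPKM in control samples. Psmb8 had 0.356, 1.57, 0.855 and 0.401 FPKM in valine samples, against 0.886, 0.487, 0.876 and 0.630 FPKM in control samples. The highest samples of Psmb9 had several times the level of the lowest in both groups, and for both genes the control values lay within the range of the valine values.

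Psmb10 was the most abundant of them, with 3.71, 5.09, 3.39 and 3.02 FPKM in valine samples, against 5.58, 4.83, 3.39 and 3.83 FPKM in control samples. Neither Psmb10 nor Psmb9 passed (limma adjusted p = 0.584 and 0.956). The share of Psmb10 in the sum with Psmb7 was 5.56 ± 1.39% in valine and 6.85 ± 1.32% in control testes. Psmb9 made up 0.663 ± 0.543% of its sum with Psmb6 in valine and 0.763 ± 0.440% in control testes. For Psmb8 with Psmb5 the shares were 0.836 ± 0.590% in valine and 0.895 ± 0.268% in control testes (SD, n = 4 each). None of these 3 shares passed (two-sided exact permutation tests, adjusted p = 0.381, 0.857 and 0.857). Psmb11, the thymus form, was at 0.0907 FPKM in valine and 0.124 FPKM in control testes.

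**Figure D3:**
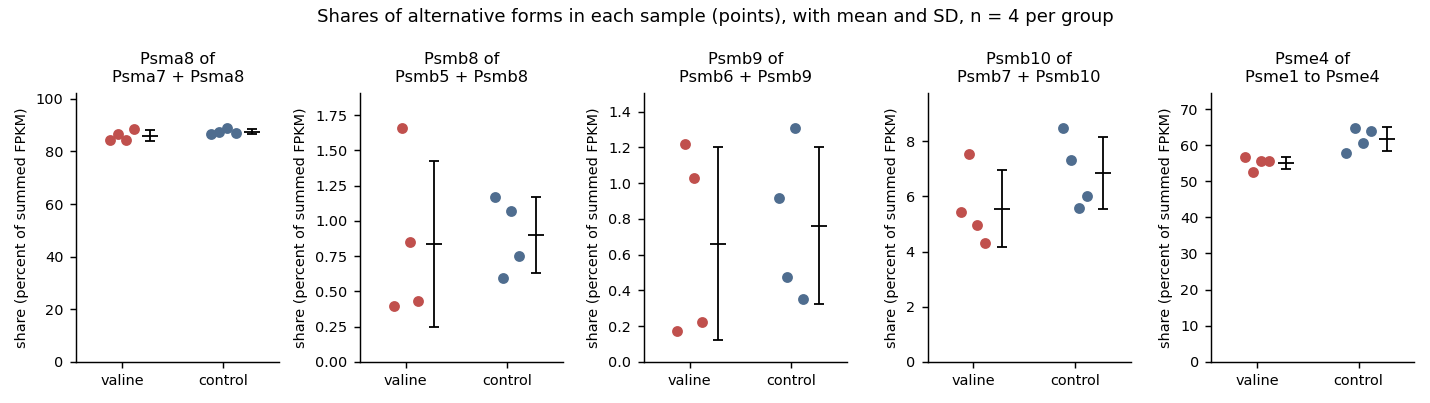
Share of each alternative form in the summed FPKM of the genes named above each panel, in percent, for each sample (points) with mean and SD beside them, n = 4 per group; all axes start at 0. Psma8 makes up over 84% of its pair in every sample, the immunoproteasome forms at most 8.49%, and the Psme4 share lies lower in all valine samples.

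Markers of several somatic cell types were lower in the same samples, while no Sertoli cell marker passed as deposited. Beside each count as deposited that follows stand the 4.32% of all tested genes that rose and the 4.41% that fell. Of 13 tested macrophage markers 5 fell and none rose, led by Lyz2, C1qa, Ctss and C1qc. The other tested ones did not pass, among them Adgre1 (-0.07) and H2-Ab1 (-0.10), named after their values were seen. The 15 genes of that list summed to 61.8 to 101 FPKM in valine and 122 to 166 FPKM in control samples. Of 9 Leydig markers 8 fell and none rose, with a median change of -1.73. Of 6 tested endothelial markers 4 fell, with a median change of -0.78, and the 7 genes of that list summed to 15.9 to 17.2 FPKM in valine and 28 to 32.4 FPKM in control samples. Of 7 stromal markers 5 fell, with a median change of -1.0 and sums of 19.7 to 24.2 FPKM in valine and 46.3 to 79.5 FPKM in control samples. After quantile normalisation or with the length trend removed 4 of them were lower, against 4.66% and 3.03% of all tested genes. None of the 3 tested lymphocyte markers passed, and the 11 genes of that list summed to 15.2 to 21.1 FPKM in valine and 15.7 to 18.7 FPKM in control samples. Most of this sum was Cd3d, with at least 10.7 FPKM in each valine and 9.69 FPKM in each control sample. Cd3e and Cd3g had at most 0.206 and 0.290 FPKM in any sample. The sum thus does not measure lymphocytes. Of the genes below the filter, Ptprc, Cd3g and Cd4 had lower means in valine, and Cd3e, Cd8a, Cd79a, Ms4a1 and Nkg7 higher ones. Ptprc had 0.0930 to 0.122 FPKM in valine and 0.157 to 0.259 FPKM in control samples. No gene of these 5 lists was at 0 in all samples, and the T cell marker Cd8a was at 0 in all control samples. Of 9 Sertoli cell markers none passed as deposited, with a median change of -0.02, and 1 was lower with equal totals, against 9.16% of all tested genes. The Sertoli markers summed to 725 to 785 FPKM in valine and 741 to 837 FPKM in control samples. Of 5 tested fat markers 1 fell and none rose. Control replicate 1 stood out for the fat markers Cfd (29.8 FPKM, at most 1.77 elsewhere) and Car3 (14.6, at most 1.65). It also stood out for the stromal Col1a1 (12.1, at most 5.14), but not for the fat marker Adipoq (30.9 FPKM). These genes were chosen after their values were seen, and carry-over of other tissue was not tested. Among 15 genes of antigen processing and interferon response 4 fell and none rose: the class I light chain B2m, the transcription factor Irf8, the kinase Jak1 and the peptide-trimming enzyme Erap1. B2m had 35.5, 37.8, 60.0 and 34.8 FPKM in valine samples, against 109, 70.3, 64.2 and 89.5 FPKM in control samples (limma adjusted p = 0.0285), and passed in 12 of the 20 alternatives. The part of these cells in the fall of Psme1 was not tested.

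In the cap, which recognises and unfolds ubiquitin-tagged proteins, 1 of 17 subunits rose and none fell, a share near the 4.32% of all tested genes that rose. The median change was 0.01 as deposited and -0.10 with equal totals. Psmc3, an ATPase that threads proteins into the core, was the one that rose. It had 668, 654, 687 and 647 FPKM in valine samples, against 562, 550.1, 598 and 593 FPKM in control samples. The groups did not overlap, and the rise was 0.21 ± 0.0426 (SE) on the log2 scale (limma adjusted p = 0.0236; 0.221 with equal totals), passing in 10 of the 20 alternatives. After quantile normalisation its change was 0.06.

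A second ATPase, Psmc5, had 167, 171, 179 and 181 FPKM in valine samples, against 155, 158, 157 and 163 FPKM in control samples. It did not overlap between the groups and did not pass (limma adjusted p = 0.0804). Psmc1, Psmc2, Psmc4 and Psmc6 changed by -0.07, 0.13, 0.12 and 0.01 on the log2 scale. Of these Psmc1 passed as lower with equal totals (-0.19, limma adjusted p = 0.0244) and quantile normalisation (-0.17, limma adjusted p = 0.0461).

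None of the 11 non-ATPase subunits of the cap passed as deposited. Psmd1, a large scaffold of the base of the cap, had 25.2, 24.3, 27.4 and 26.3 FPKM in valine samples, against 29.6, 32.9, 29 and 28.7 FPKM in control samples. All valine samples were lower, with a change of -0.21 ± 0.065 (SE; limma adjusted p = 0.0820, and 0.0202 with equal totals). Psmd2, the other large scaffold, averaged 264 ± 5.62 FPKM in valine and 279 ± 2.83 FPKM in control testes (SD, n = 4 each), also with no overlap (limma adjusted p = 0.184, and 0.0121 with equal totals).

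The cap subunits with the next smallest p lay higher in valine. Psmd8, of the lid that covers the base, had 268, 248, 248 and 275 FPKM in valine samples, against 220.2, 229.7, 228 and 249 FPKM in control samples. Psmd13, another lid subunit, had 56.0, 52.3, 54.2 and 53.6 FPKM in valine samples, against 48.0, 48.2, 49.7 and 50 FPKM in control samples. Psmd4, a receptor for ubiquitin chains, had 136, 138, 135 and 146 FPKM in valine samples, against 130.5, 121, 127 and 129 FPKM in control samples. Psmd13 and Psmd4 did not overlap between the groups and Psmd8 did, and the adjusted p from limma was 0.0911 for Psmd13, 0.122 for Psmd4 and 0.101 for Psmd8, so that none passed. Psmd3, Psmd6, Psmd7, Psmd11, Psmd12 and Psmd14 changed by at most 0.03 in either direction.

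Psmf1, an inhibitor, had the largest of the 5 rises as deposited. It binds the core and blocks it in the test tube, and it is also known as an adaptor in proteasome transport. Psmf1 had 176, 176, 169.6 and 199 FPKM in valine samples, against 150.2, 138, 146 and 151 FPKM in control samples. Every valine sample was above every control sample. The rise was 0.30 ± 0.0592 (SE) on the log2 scale, a 1.23-fold difference (95% interval 0.16 to 0.43, limma adjusted p = 0.0204). It was positive in all 20 alternatives and passed in 14 of them. The adjusted p was 0.0591 with equal totals, 0.0490 with quantile normalisation and 0.0132 with the length trend removed.

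Assembly chaperones, which put the rings and the base together and then leave, had no call as deposited. Psmg4, which pairs with Psmg3, had 24.4, 27.2, 30.3 and 28.1 FPKM in valine samples, against 20.9, 21.3, 24.8 and 22.1 FPKM in control samples. The groups overlapped by 1 sample on each side, and Psmg4 did not pass (change 0.29 ± 0.0825 SE, limma adjusted p = 0.0647). Psmd9, a chaperone of the base, did not overlap between the groups (9.81 ± 0.335 FPKM in valine and 8.58 ± 0.415 FPKM in control testes, SD, n = 4 each). Its adjusted p from limma was 0.145 as deposited and 0.0458 with the length trend removed. Psmg1, Psmg2, Psmg3, Psmd5 and Psmd10 did not pass, with changes from -0.18 to 0.22. One member is no proteasome part: Psmc3ip, named for its binding to an ATPase, acts in the pairing of chromosomes in meiosis, and had 189 ± 22.0 FPKM in valine and 191 ± 21.6 FPKM in control testes (SD, n = 4 each; limma adjusted p = 0.957).

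**Figure D4:**
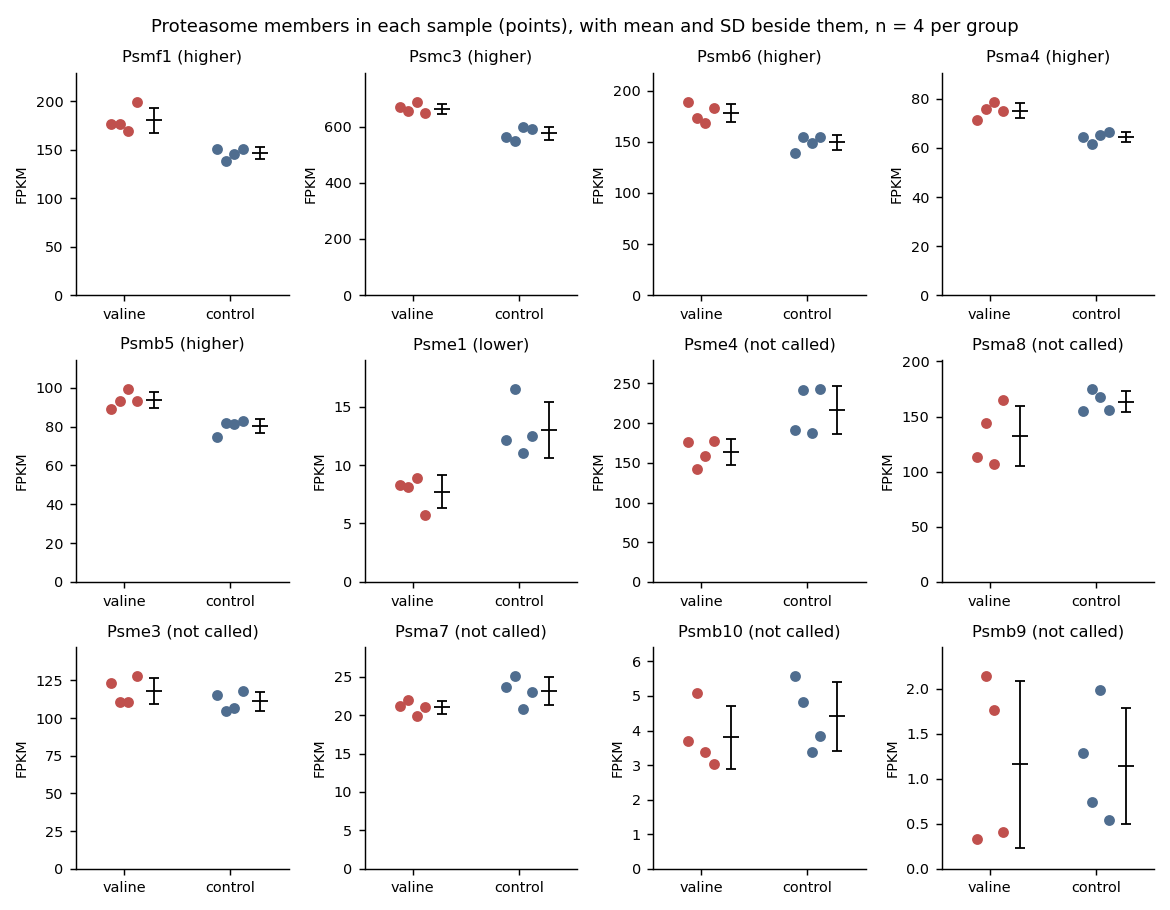
FPKM of 12 members in each sample (points), valine left and control right, with mean and SD beside the points, n = 4 per group; every axis starts at 0. The 5 called rises and the called fall of Psme1 show no overlap, Psme4 is lower in every valine sample without passing, and Psma8 overlaps through valine replicate 4.

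Genes that work with the proteasome but lie outside these families moved both ways. Of 29 tested genes 3 rose and 3 fell, against 4.32% and 4.41% of all tested genes, with a median change of -0.01. Nfe2l1, the transcription factor named above, had 24.4, 27.5, 29.9 and 28.4 FPKM in valine samples, against 41.9, 41.6, 37.9 and 38.8 FPKM in control samples. It fell by 0.53 on the log2 scale (SE 0.0723, limma adjusted p = 0.00606), with no overlap, and passed in all 20 alternatives. Ube3c, a ubiquitin ligase that acts at the proteasome, fell by 0.32 (limma adjusted p = 0.0117). Nploc4, a partner of the unfolding ATPase Vcp, fell by 0.30 (limma adjusted p = 0.0429).

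Ubb, one of the genes for ubiquitin itself, rose to 6641 ± 97.9 FPKM in valine, against 5192 ± 477 FPKM in control testes (SD, n = 4 each; limma adjusted p = 0.0142). After quantile normalisation its adjusted p from limma was 0.131. Akirin2, known from human cells to carry proteasomes into the nucleus, rose by 0.35 (limma adjusted p = 0.0101), and Uchl5, a deubiquitinase of the cap, by 0.26 (limma adjusted p = 0.0330). Uchl5 did not pass with equal totals (limma adjusted p = 0.181). Of the 20 alternatives, Akirin2 and Ube3c passed in 19, Ubb in 18, Nploc4 in 8 and Uchl5 in 7. With equal totals 2 of the 29 genes were higher and 7 lower, against 1.64% and 9.16% of all tested genes, and with quantile normalisation 1 was higher and 4 were lower, against 1.80% and 4.66%.

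**Figure D5:**
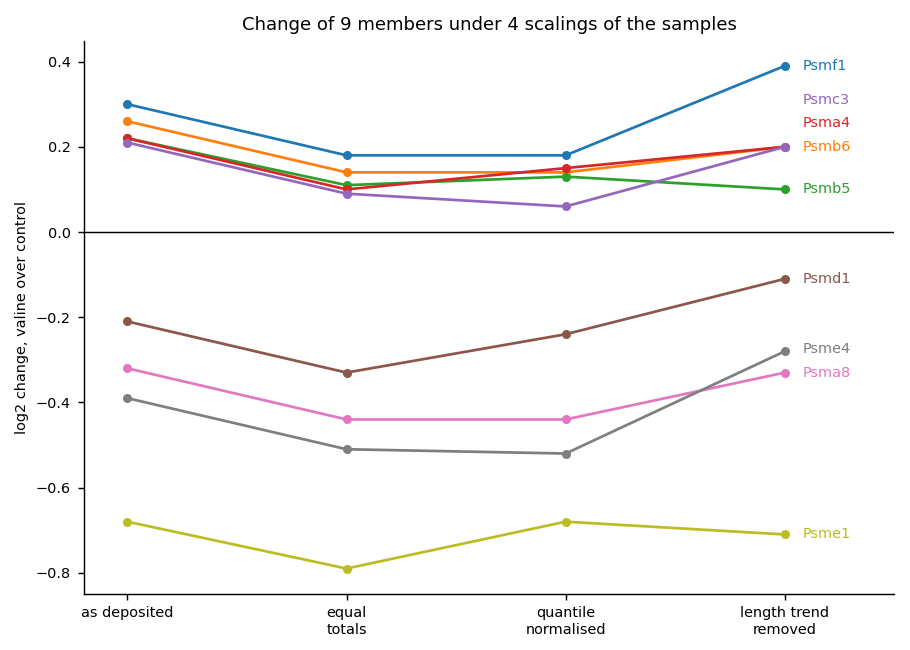
Log2 change of 9 members, valine over control, as deposited, with equal FPKM totals, after quantile normalisation and with the length trend removed. All 9 keep their sign; Psmf1 lies between 0.18 and 0.39, Psme4 between -0.52 and -0.28 and Psme1 between -0.79 and -0.68.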

How the data were processed

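RNA of mouse testis was sequenced after a TruSeq preparation, per the labels' protocols. The authors deposited 1 table of FPKM values. Reads were aligned with HISAT2 to GRCm39, per the submitters' processing notes. The sources used here do not state the quantifier, the annotation or the strand setting. Columns were assigned to samples by group and replicate number, and 0 per-sample columns were left unused. Symbols came from a table of Ensembl gene names and from RefSeq (52081 genes named), and gene types and exon lengths from GENCODE vM21 (98.2% of tested genes had a length). Promoters are RefSeq's for GRCm38.p6, and no coordinates were converted.

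Values were analysed as log2(FPKM + 1) with limma 3.58.1 in R 4.3.3, with treatment as the only term and a mean-variance trend, after a filter at a mean of 1 FPKM. Within-sample shares were compared by two-sided exact permutation over 70 arrangements. The fit was tested on simulated data. Members, gene lists and motifs were chosen with earlier results of these data known. Values per sample were given for 8 members fixed by name and the 12 others with the smallest p; others were chosen after their values were seen. In the companion lists up to 4 passing genes were named by smallest p, and the rest of a short count after the values were seen.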

Additional observations from a re-analysis of the deposited data

How the results depend on the processing

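The counts of members higher and lower were 5 and 1 as deposited. They were 3 and 0 with no filter on low values (1.35% and 1.69% of the 42171 genes above 0 in any sample). With the filter at a mean of 5 FPKM they were 6 and 1 (8.18% and 5.40%). They were 0 and 5 with equal totals and 1 and 4 with quantile normalisation. Without the mean-variance trend they were 0 and 1 (2.28% and 3.84%), and with the length trend removed 3 and 1. When samples were scaled to the same median of the members they were 0 and 3 (1.27% and 5.54%), an alternative chosen after seeing the data. The median change of members, 0.08, was -0.03, 0.01, 0.02 and -0.01 with equal totals, quantile normalisation, length trend removed and equal member median. With 1 library left out the counts ranged from 0 to 4 higher and 0 to 1 lower and the median from 0.06 to 0.10. The replicate block gave 2 higher and 0 lower (2.63% and 2.21%); same-numbered samples deviated together with correlations of -0.0167, -0.0401, 0.104 and 0.111, so the numbers were not taken as pairs, and not every sample correlated best with its own number. Under the block no share passed, since the 16 sign-flip arrangements cannot go below 0.125. With 1 library left out, the difference in share (percentage points, valine minus control) ranged from -2.47 to -0.97 for Psma8, -0.335 to 0.0869 for Psmb8, -0.287 to 0.0822 for Psmb9, -1.95 to -0.746 for Psmb10 and -7.94 to -5.58 for Psme4. The change of Psme3 was -0.03 with equal totals, -0.02 with quantile normalisation and -0.00 with equal member medians, and that of Psmb9 was 0.02 with quantile normalisation and -0.26 to 0.16 with a library left out. The cause of these shifts was not tested. The absolute depth was unknown, so limits from depth could not be set; Psmb8 and Psmb11 lay below the filter, and Psmb9 and Psmg3 were the lowest members tested.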

Other observations

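The immunoproteasome genes did not vary alone. Psmb9 was highest in valine replicate 2 (2.14 FPKM) and control replicate 3 (1.98 FPKM), and these 2 samples also had the highest values of their groups of the peptide transporter genes Tap1 (5.11 and 5.35 FPKM) and Tap2 (5.63 and 5.68 FPKM) and of the class I gene H2-K1 (31.3 and 36.4 FPKM), genes chosen after their values were seen. In the other samples Tap1 had 0.668 to 2.45 FPKM in valine and 0.684 to 1.40 FPKM in control testes. Psmb10 and B2m were not highest in control replicate 3 (3.39 and 64.2 FPKM). H2-K1 has close relatives, so its value is uncertain.

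Of 13 short motifs searched in the promoters of 42 members, CCGGAAG, the pattern of ETS factors, was found in 15 (35.7%), against 9.93% of all promoters in the table; it was singled out after the search and overlaps in part with GGAAGTG, found in 8 (19.0%, against 12.5%). The 15 included members lower and members higher in valine testes, such as Psme4 (-0.39) and Psmd13 (0.14, log2), neither of which passed.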
